A study of Rattus norvegicus with 18 samples.

Results

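Inducible heat shock proteins and the co-chaperones that work with them were followed in rat brain cortex after cerebral ischemia. The set is 10 genes: Hspa1a, Hspa1b, Hspa8, Dnajb1, Bag3, Hsph1, Hspb1, Cryab, Hspd1 and Hspe1. It was fixed by name, with earlier results of these data known. All 10 had a probe on the array, 18 probes among 41012, and 17 of these probes, covering 9 genes, could be tested among the 28956 probes tested on the array. The array probe for Hspa1b was well above background on 3 of 18 arrays and is described by its signal only.

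The rats were males of 250 to 280 g, and their strain was Crl:CD(SD)BR. In the ischemic groups blood flow through the middle cerebral artery, the main supply of the lateral cortex, was blocked (MCAO), and the rats received either saline or erythropoietin (EPO), the hormone that drives red cell formation. Sham-operated rats, listed with no treatment, were the controls, so saline and sham groups differ in the injection as well as in the ischemia. Each of the 3 groups was sampled at 2 h and at 6 h after MCAO, with n = 3 arrays per group and 18 in all. The dose of EPO and the time of its injection are not given in the sources used here. The labels number the replicates without saying that each was a separate animal, and the p-values measure only the spread between these arrays.

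Heat shock proteins are chaperones: they bind unfolded stretches of other proteins, keep them from aggregating and help them refold. HSP70 proteins do this in cycles of ATP hydrolysis that are started by J-domain partners such as Dnajb1 and reset by nucleotide exchange factors such as Bag3 and Hsph1, while small heat shock proteins hold unfolded clients without ATP and the mitochondrial chaperonin folds proteins inside a closed barrel. Many of these genes are switched on by heat shock factor 1, which binds inverted repeats of the letters GAA, called heat shock elements, and HSP70 is a long-used marker of stressed tissue around an infarct.

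Because these repeats are the shared regulatory feature of the family, the DNA just upstream of the genes was read. RefSeq, on the rat assembly GRCr8, gave a window of 250 bases before to 50 bases after the start for 8 of the 10 genes, all but Hspa1b and Cryab. The search covered both strands. The 3-unit repeat, GAANNTTC followed directly by NNGAA, was present in the windows of 4 of 8 genes, Hsph1, Hspa8, Hspd1 and Hspe1, against 0.798% of all 33469 RefSeq promoter windows of the same length. The 2-unit form GAANNTTC, which overlaps the longer one, was present in 7 of 8 windows against 8.59% of all windows, and the other 2-unit form, TTCNNGAA, in 4 of 8 against 8.77%. The 250 bases before the start are printed for the 6 windows that show these arrangements, 5′ to 3′ on the gene's own strand, with capitals marking every match to either 2-unit form, and hence to the 3-unit form built from them. The windows lie at chr12:10427118-10427367 on the plus strand for Hsph1, chr8:50080264-50080513 on the plus strand for Hspa8, chr9:64084077-64084326 on the plus strand for Hspe1, chr12:26432302-26432551 on the minus strand for Hspb1, chr1:192533210-192533459 on the plus strand for Bag3 and chr19:41431142-41431391 on the minus strand for Dnajb1.
Hsph1: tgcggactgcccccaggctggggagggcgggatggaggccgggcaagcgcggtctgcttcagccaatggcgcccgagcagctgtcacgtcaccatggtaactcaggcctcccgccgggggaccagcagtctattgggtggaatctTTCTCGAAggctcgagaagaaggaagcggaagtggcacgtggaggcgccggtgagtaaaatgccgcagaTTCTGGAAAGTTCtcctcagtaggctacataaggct
Hspa8: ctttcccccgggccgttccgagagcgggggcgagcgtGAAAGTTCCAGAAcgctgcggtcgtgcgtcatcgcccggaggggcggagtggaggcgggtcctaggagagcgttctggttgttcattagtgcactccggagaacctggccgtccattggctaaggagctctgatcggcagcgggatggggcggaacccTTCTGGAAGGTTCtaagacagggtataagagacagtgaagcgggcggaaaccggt
Hspe1: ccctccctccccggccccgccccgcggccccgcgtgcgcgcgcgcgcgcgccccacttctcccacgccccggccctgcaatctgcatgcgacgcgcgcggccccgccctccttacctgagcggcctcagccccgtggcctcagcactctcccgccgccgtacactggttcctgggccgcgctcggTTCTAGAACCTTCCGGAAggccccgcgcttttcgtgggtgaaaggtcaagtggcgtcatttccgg
Hspb1: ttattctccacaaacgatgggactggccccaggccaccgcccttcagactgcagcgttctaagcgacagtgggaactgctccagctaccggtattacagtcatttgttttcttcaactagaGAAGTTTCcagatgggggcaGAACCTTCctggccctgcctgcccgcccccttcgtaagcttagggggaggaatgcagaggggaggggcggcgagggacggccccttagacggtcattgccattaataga
Bag3: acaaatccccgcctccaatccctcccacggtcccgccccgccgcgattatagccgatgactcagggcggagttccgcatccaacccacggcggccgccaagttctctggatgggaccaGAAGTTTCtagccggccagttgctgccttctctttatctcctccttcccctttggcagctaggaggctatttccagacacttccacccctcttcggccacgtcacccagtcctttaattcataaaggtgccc
Dnajb1: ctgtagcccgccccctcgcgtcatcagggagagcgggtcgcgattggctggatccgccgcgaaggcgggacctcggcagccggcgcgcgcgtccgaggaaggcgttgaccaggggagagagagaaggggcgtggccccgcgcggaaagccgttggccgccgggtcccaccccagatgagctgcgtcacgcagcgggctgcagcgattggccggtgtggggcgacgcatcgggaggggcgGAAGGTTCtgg

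Hspd1 and Hspe1 are neighbours on chromosome 9 that are read away from each other, and their windows share 211 of 300 bases. The 18 capital bases of Hspe1, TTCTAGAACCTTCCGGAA, at chr9:64084262-64084279, are therefore also the match counted for Hspd1, where they read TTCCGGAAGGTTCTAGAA. Hspa8 carried a pair of separate 3-unit matches and Hsph1 carried 1 close to its start with a 2-unit match further upstream. Hspb1 had a pair of 2-unit matches, Bag3 had 1, and Dnajb1 had 1 directly before its start and another after it, which is not printed. The window of Hspa1a held none of these forms, which says only that these letters are not in this window. GGGCGG, the GC box, was found in 7 of 8 windows against 33.1% of all windows, CCAAT in 4 of 8 against 37.5%, and TATAAA in 0 of 8 against 14.2%.

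Levels are given as log2 signal minus the 75th percentile of the array, so 0 is the signal that 75% of the probes do not exceed, and they are not compared between probes. Changes are log2 differences of group means ± the standard error (SE) of 1 limma model over the 18 arrays, with Benjamini-Hochberg adjustment over all 28956 probes. A gene is said to have risen or fallen where the adjusted p was under 0.05. The probe of highest mean signal stands for its gene, and the other probes are given beside it. No spot of the 18 probes was saturated on any array. Between 61.5% and 80.6% of the array's probes were well above background. In 6 arrays the spike-in controls gave a steeper slope of signal on amount, 0.914 to 0.941 against 0.788 to 0.866 in the other 12. These 6 were spread over all groups but sham at 2 h, 2 of them in the saline group at 6 h and 1 in every other. The arrays lay on 5 slides, of which 3 held both saline and sham at 2 h and 2 held both at 6 h, and within-slide differences are given as a range over those slides.

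**Figure D1:**
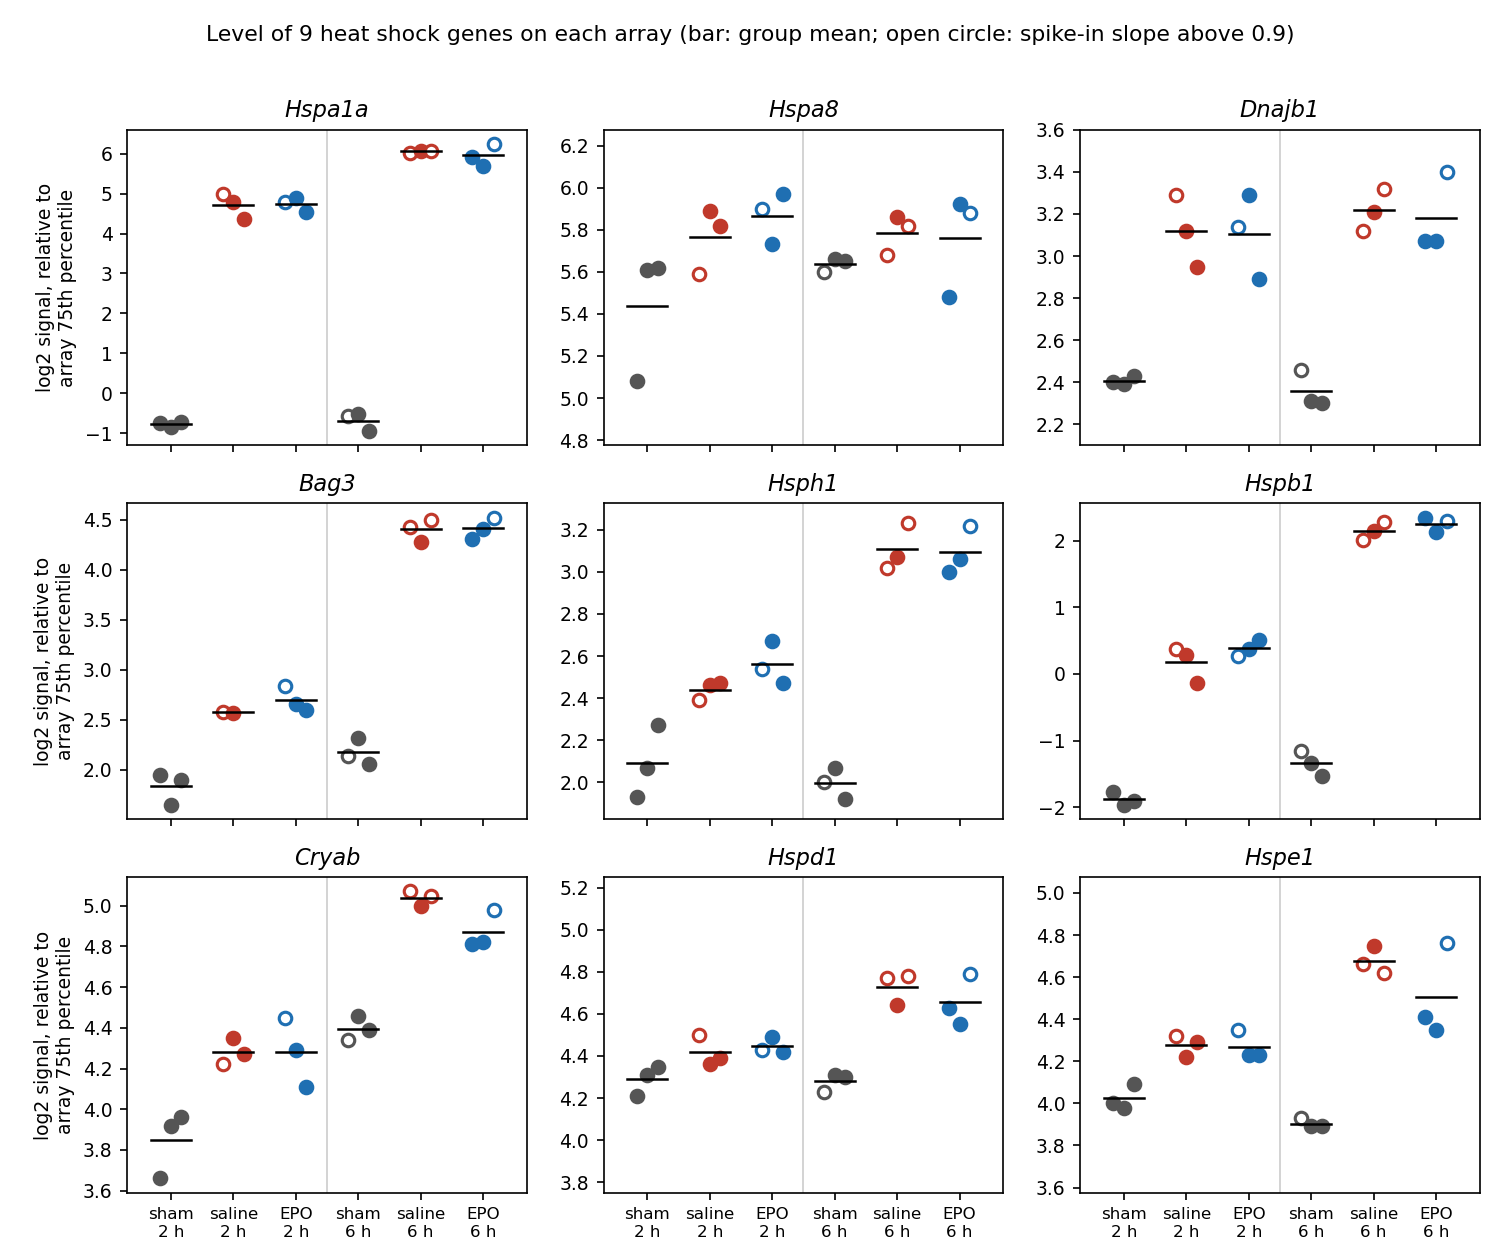
Level of 9 genes on each of the 18 arrays, as log2 signal relative to the array's 75th percentile on a separate vertical axis for each gene, by group on the horizontal axis. Points are arrays (open where the spike-in slope was above 0.9) and bars are group means; Hspa1a stood between -0.95 and -0.53 on sham arrays and between 4.36 and 6.24 on ischemic arrays.

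In ischemia with saline, 5 of the 9 tested genes rose at 2 h and 8 of 9 at 6 h against sham, and none fell at either time. Across the array, 1.48% of 12541 named genes passed the same test upward at 2 h and 7.14% at 6 h. The median change of the 9 genes was 0.43 at 2 h and 0.86 at 6 h, beside -0.02 and -0.05 over all named genes. Hspa1a, Hspb1 and Bag3 rose most. Saline and sham arrays did not overlap for 8 of the 9 genes at 2 h, when 10.6% of named genes stood wholly higher, nor for all 9 at 6 h, when 16.4% did. The tissue is a mixture of cells, and in such samples fewer cells of a type and less RNA per cell cannot be told apart.

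Hspa1a, the stress-inducible cytosolic HSP70, was measured by a probe printed as 10 spots. On sham arrays it stood at -0.76, -0.85 and -0.71 at 2 h and at -0.58, -0.53 and -0.95 at 6 h. With saline it stood at 5.0, 4.78 and 4.36 at 2 h and at 6.03, 6.07 and 6.08 at 6 h. Every ischemic array was far above every sham array, and the sham arrays of both times overlapped. The rise was 5.49 ± 0.17, or 44.9-fold (95% interval 35 to 57.7), at 2 h and 6.74 ± 0.17, or 107-fold (83.4 to 138), at 6 h (limma adjusted p = 1.19e-09 and 7.84e-11). Among the 12541 named genes this was the second largest rise at 2 h and the largest at 6 h. Within slides it ranged from 5.07 to 5.76 at 2 h and from 6.60 to 6.66 at 6 h.

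The processed signal of this probe went from 828 to 1080 units on sham arrays up to 106000 on an ischemic array. On all 12 ischemic arrays the value was taken from the scanner's low-gain scan and scaled up, and on the 6 sham arrays from the high-gain scan. A second, single-spot probe of Hspa1a read -1.31, -1.28 and -1.30 in sham and 3.93, 3.62 and 3.11 in saline at 2 h. Only 1 of those 3 saline values came from the low-gain scan, and its rise was 4.85 ± 0.20 at 2 h and 6.37 ± 0.20 at 6 h. Both probes thus rose by more than 4 log2 units at 2 h, by 28.8-fold in the second, and the 95% intervals of their 6 h changes overlapped, 6.38 to 7.11 and 5.95 to 6.79.

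Hspa1b encodes a nearly identical HSP70 and lies next to Hspa1a on chromosome 20, with Hspa1l on the other side. Its probe gave signals of 8.92 to 153 and was well above background on 1 saline array at 2 h and on 2 EPO arrays at 6 h. No level or fold was taken from it. Current annotation also lists Hspa1b as a synonym of Hspa1a, and whether the probes of Hspa1a also bind Hspa1b transcripts was not tested. Which of the genes the values of Hspa1a belong to cannot be told apart.

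Hspa8, the constitutive HSP70 that every cell makes, had 4 probes that did not give the same call. Its brightest probe stood at 5.08, 5.61 and 5.62 in sham and 5.59, 5.89 and 5.82 in saline at 2 h, and at 5.60, 5.66 and 5.65 against 5.68, 5.86 and 5.82 at 6 h. The groups overlapped at 2 h, where sham replicate 1 was the low array, and lay next to each other without overlap at 6 h. This probe changed by 0.33 ± 0.15 and 0.15 ± 0.15 and passed at neither time (adjusted p = 0.402 and 0.634). Its within-slide values were 0.20 to 0.51 and 0.20 to 0.22. A second probe, with a tighter spread, rose by 0.29 ± 0.06 at 2 h and 0.35 ± 0.06 at 6 h (adjusted p = 0.0223 and 0.00161). Another probe passed at 6 h only, with 0.24 ± 0.08 at 2 h (adjusted p = 0.172) and 0.49 ± 0.08, or 1.40-fold, at 6 h (adjusted p = 0.00121). The dimmest probe, at a median signal of 4520 units against 54800 or more for the others, showed 0.20 ± 0.15 and 0.23 ± 0.15. All 4 probes were thus higher at both times, by no more than 1.40-fold, and 2 of 4 passed at 6 h. With the mean of all 4 probes standing for the gene, Hspa8 changed by 0.31 at 6 h with an adjusted p of 0.0249, and all 9 genes passed.

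**Figure D2:**
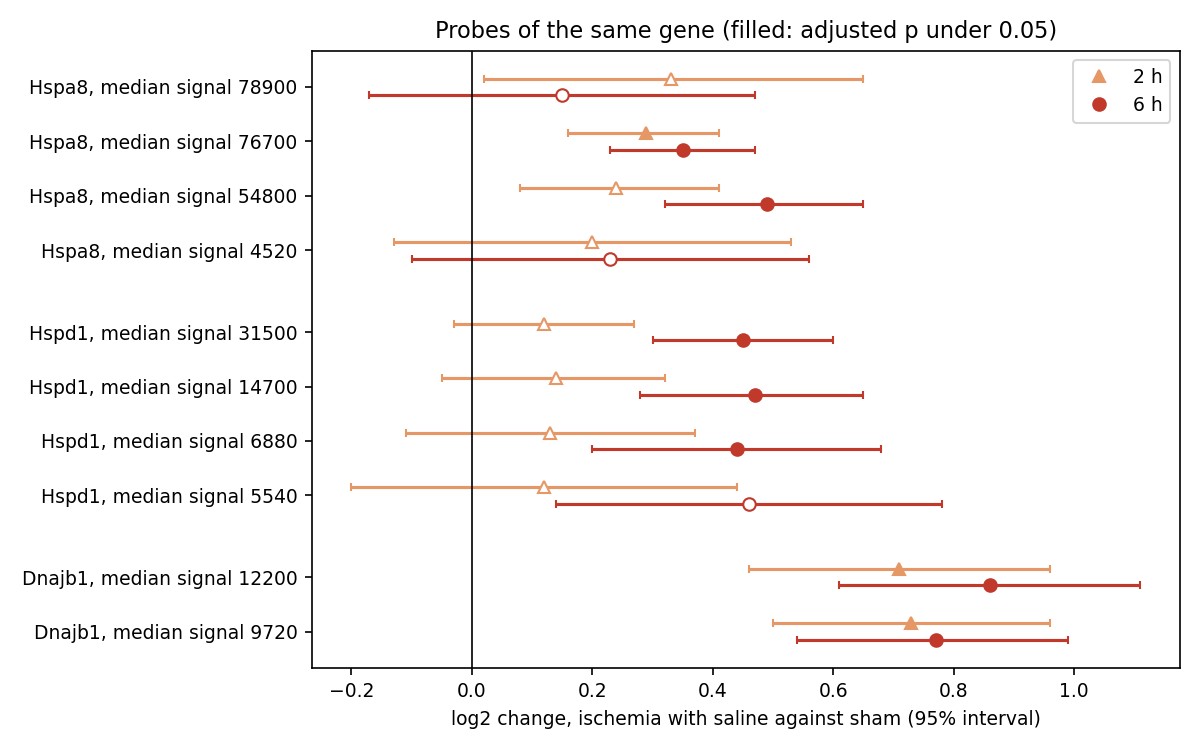
Log2 change in ischemia with saline against sham for every probe of Hspa8, Hspd1 and Dnajb1, with 95% intervals, ordered by median processed signal within a gene; triangles are 2 h, circles 6 h, and filled symbols have an adjusted p under 0.05. All 20 estimates lie above 0, and the calls differ between probes of Hspa8 and of Hspd1.

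Of the co-chaperones, Dnajb1, which carries the J-domain that starts the HSP70 cycle, rose at both times. It stood at 2.40, 2.39 and 2.43 in sham and 3.29, 3.12 and 2.95 in saline at 2 h, then at 2.46, 2.31 and 2.30 against 3.12, 3.21 and 3.32 at 6 h. The saline arrays of both times lay in the same range and above all sham arrays. The rise was 0.71 ± 0.12, or 1.64-fold, at 2 h and 0.86 ± 0.12, or 1.82-fold, at 6 h (adjusted p = 0.00613 and 0.000457). Within slides it was 0.52 to 0.89 and 0.86 to 0.90. The second probe gave 0.73 ± 0.11 and 0.77 ± 0.11, also past the threshold at both times.

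Bag3, a nucleotide exchange factor of HSP70 that also steers damaged proteins to autophagy, rose at 2 h and again from 2 h to 6 h. It stood at 1.95, 1.65 and 1.90 in sham at 2 h and at 2.58 and 2.57 in saline, where the spot of replicate 3 was marked as an outlier and is missing from the fit. At 6 h it stood at 2.14, 2.32 and 2.06 in sham and at 4.43, 4.28 and 4.50 in saline. Saline arrays were above sham at both times, and those at 6 h far above those at 2 h. The rise went from 0.75 ± 0.11, or 1.68-fold, to 2.23 ± 0.10, or 4.69-fold (adjusted p = 0.00438 and 1.04e-07). With the outlier spot kept, the 2 h change was 0.67 (adjusted p = 0.00483). Within slides it was 0.64 to 0.92 on the 2 slides that measured it at 2 h and 1.95 to 2.36 at 6 h. The 6 h values of the ischemic arrays came from the low-gain scan and all others from the high-gain scan, and the part of this in the result was not tested.

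Hsph1, the HSP110 exchange factor, passed only at 6 h with saline. At 2 h it stood at 1.93, 2.07 and 2.27 in sham and 2.39, 2.46 and 2.47 in saline, a difference of 0.35 ± 0.09 (adjusted p = 0.100) although the arrays did not overlap. At 6 h it stood at 2.00, 2.07 and 1.92 against 3.02, 3.07 and 3.23. The gap between the groups was then wider than the spread in either, and the rise was 1.11 ± 0.09, or 2.16-fold (adjusted p = 7.75e-06). Within slides the differences were 0.20 to 0.45 and 1.01 to 1.23.

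Among the small heat shock proteins, Hspb1, the rat HSP27, which binds unfolded clients and actin, showed the second largest rise of the 9 genes. Its 10-spot probe stood at -1.77, -1.96 and -1.91 in sham and 0.37, 0.29 and -0.13 in saline at 2 h. At 6 h it stood at -1.15, -1.34 and -1.53 in sham and 2.01, 2.14 and 2.27 in saline. Saline was above sham on every array, and saline at 6 h was above saline at 2 h on every array. The rise was 2.05 ± 0.13, or 4.15-fold (3.41 to 5.05), at 2 h and 3.48 ± 0.13, or 11.2-fold (9.18 to 13.6), at 6 h (adjusted p = 3.48e-06 and 6.3e-09). It ranked 24 and 13 among the rises of all named genes. Within slides it was 1.78 to 2.24 and 3.42 to 3.48, and its signal never came from the low-gain scan.

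Cryab encodes alpha-B crystallin, a small heat shock protein of glia, above all oligodendrocytes, and of the lens. It stood at 3.66, 3.92 and 3.96 in sham and 4.22, 4.35 and 4.27 in saline at 2 h, and at 4.34, 4.46 and 4.39 against 5.07, 5.0 and 5.05 at 6 h. The sham arrays at 6 h were as high as the saline arrays at 2 h, and within each time saline was higher with no overlap. The rise was 0.43 ± 0.09, or 1.35-fold, at 2 h and 0.64 ± 0.09, or 1.56-fold, at 6 h (adjusted p = 0.0379 and 0.000713). The 2 h call was near the threshold and held in 11 of 23 alternatives, with adjusted p from 0.0161 to 0.402. The values came from the low-gain scan on 2 of 3 sham arrays at 2 h and on all 3 arrays of every other group. The part of this in the result was not tested. Within slides the differences were 0.32 to 0.55 and 0.54 to 0.71.

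Oligodendrocyte markers were also higher than in sham at 6 h: 5 of 12 rose (7.14% of named genes did) and none fell, with a median of 0.34. Their summed level was 8.01 to 8.17 on sham and 8.21 to 8.35 on saline arrays at 6 h, and all 12 were above background on every array. At 2 h it was 8.13 to 8.16 on sham and 8.28 to 8.36 on saline arrays. Within sham and within saline these summed levels, in which the brightest markers weigh most, overlapped between times. The ischemia effect on the 12 markers differed between times by a median of 0.15, from -0.14 to 0.57. Cryab was higher at 6 h than at 2 h by 0.55 in sham and 0.76 in saline. Ermn and Opalin, both genes of mature oligodendrocytes, rose by 0.60 ± 0.11 (adjusted p = 0.00464) and 0.63 ± 0.14 (adjusted p = 0.0118). The myelin gene Mbp changed by 0.25 ± 0.09 at 6 h and did not pass (adjusted p = 0.0944). At 2 h 0 of the 12 passed, with a median of 0.21. The part of cell make-up in the change of Cryab was not tested. Hspb2, another small heat shock gene and the neighbour of Cryab on chromosome 8, gave -0.25 ± 0.30 and -0.18 ± 0.30 and did not pass.

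The mitochondrial chaperonin is the pair of Hspd1 (HSP60, the barrel) and Hspe1 (HSP10, its lid), whose shared promoter is printed above. Hspd1 stood at 4.21, 4.31 and 4.35 in sham and 4.50, 4.36 and 4.39 in saline at 2 h, and at 4.23, 4.31 and 4.30 against 4.77, 4.64 and 4.78 at 6 h. Hspe1 stood at 4.0, 3.98 and 4.09 against 4.32, 4.22 and 4.29 at 2 h, and at 3.93, 3.89 and 3.89 against 4.66, 4.75 and 4.62 at 6 h. Neither passed at 2 h and both rose at 6 h, when every saline array was above every sham array. Hspd1 changed by 0.12 ± 0.07 and then 0.45 ± 0.07, or 1.37-fold (adjusted p = 0.545 and 0.0011). Hspe1 changed by 0.25 ± 0.09 and then 0.77 ± 0.09, or 1.71-fold (adjusted p = 0.239 and 0.000111). Within slides at 6 h these were 0.33 to 0.55 and 0.69 to 0.85. The other 3 probes of Hspd1 changed by 0.44 to 0.47 at 6 h, and the dimmest of them did not pass (adjusted p = 0.0709).

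The counts depended on which arrays were kept. Without the 6 arrays of steep slope, Bag3 could not be fitted, and 2 of the other 8 genes (Hspa1a and Hspb1) passed at 2 h. That setting removes 2 of the 3 saline arrays at 6 h, so no 6 h count is given for it. With saline replicate 1 or 2 of the 2 h group left out, Bag3 could not be fitted either, and 3 of 8 passed at 2 h.

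**Figure D3:**
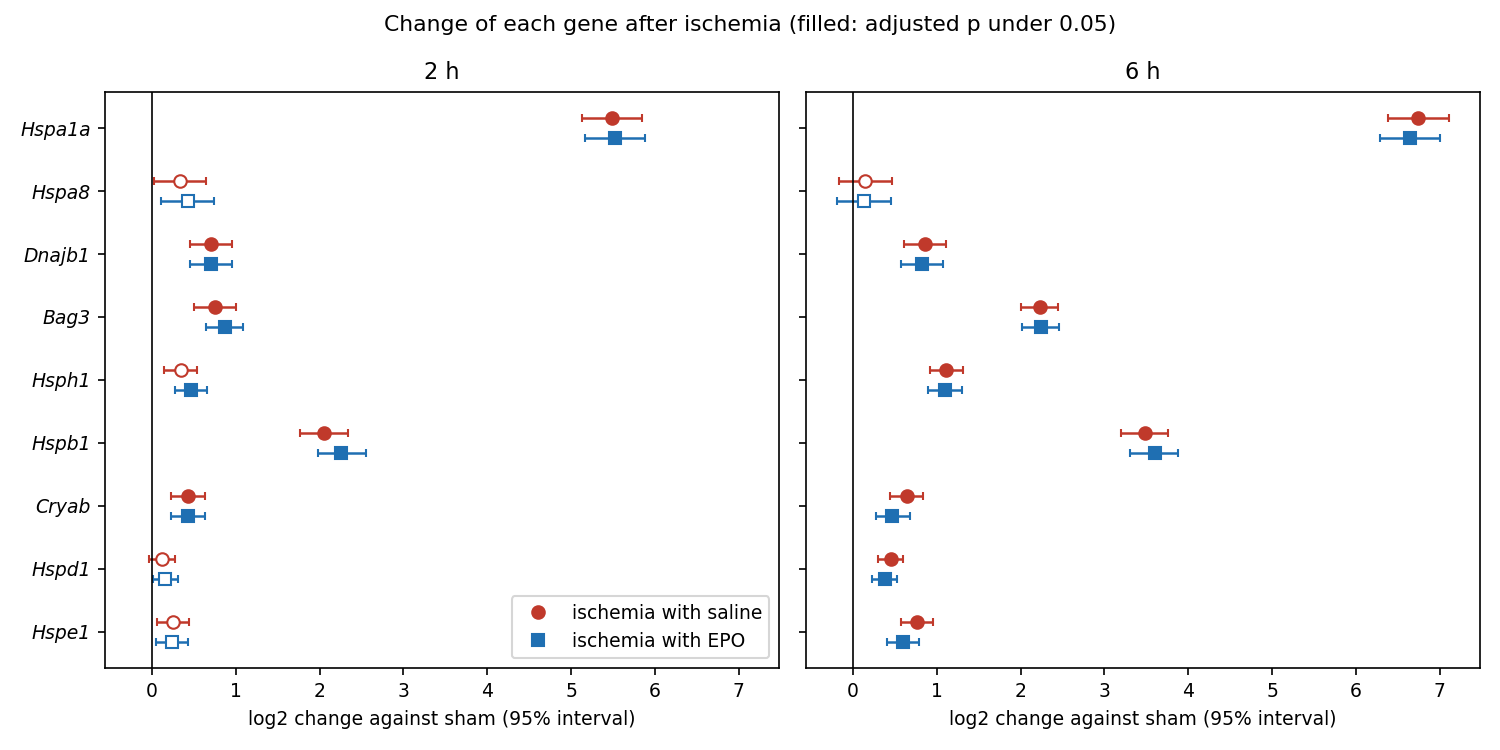
Log2 change against sham with 95% intervals for each gene at 2 h (left) and 6 h (right), for ischemia with saline (circles) and with EPO (squares); filled symbols have an adjusted p under 0.05. The saline and EPO estimates of each gene lie within 0.21 of each other at both times.

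The comparison of EPO with saline in ischemic cortex asks whether the hormone alters this response. None of the 9 genes passed at 2 h or at 6 h, and neither did any probe of the array (0% called; 381 and 1211 probes had an unadjusted p under 0.05 in limma at 2 h and 6 h, and none of these was the probe standing for 1 of the 9 genes). The differences ran from -0.01 to 0.21 at 2 h and from -0.17 to 0.11 at 6 h, and all 9 intervals held 0 at both times. The outermost ends of these intervals over the 9 genes were -0.33 and 0.50 at 2 h and -0.46 and 0.40 at 6 h. Within slides at 6 h, EPO minus saline ran from -0.37 to 0.16 for Hspa1a and from -0.26 to -0.06 for Cryab over 3 slides. At 2 h 1 slide held both groups, with replicate 3 of each. There EPO minus saline ran from -0.16 for Cryab to 0.64 for Hspb1 over the genes measured. The difference between times in the effect of EPO passed for none of the 9 genes (0% of named genes; 684 probes had an unadjusted p under 0.05).

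By gene, Hspa1a with EPO stood at 4.78, 4.90 and 4.55 at 2 h and at 5.93, 5.70 and 6.24 at 6 h, overlapping the saline arrays at both times. Its difference from saline was 0.03 (-0.33 to 0.39) and -0.10 (-0.46 to 0.26), with adjusted p of 1 and 0.839. Hspb1 with EPO stood at 0.27, 0.38 and 0.51 and then at 2.34, 2.13 and 2.29. It overlapped saline too and had the highest estimates of the 9 genes at both times, 0.21 (-0.07 to 0.50) and 0.11 (-0.17 to 0.40). The co-chaperone Dnajb1 with EPO stood at 3.14, 3.29 and 2.89 and then at 3.07, 3.07 and 3.40, and Hsph1 at 2.54, 2.67 and 2.47 and then at 3.00, 3.06 and 3.22. Hspd1 with EPO stood at 4.43, 4.49 and 4.42 and then at 4.63, 4.55 and 4.79. All 3 overlapped the saline arrays at both times.

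Groups that did not overlap were seen for 1 gene at each time. Cryab with EPO at 6 h stood at 4.81, 4.82 and 4.98, below the 3 saline arrays, with a difference of -0.17 (-0.37 to 0.03; adjusted p = 0.779), and 4.94% of named genes stood wholly lower. Bag3 with EPO at 2 h stood at 2.84, 2.66 and 2.60, above the 2 saline arrays measured, with a difference of 0.12 (-0.12 to 0.37), and 2.64% of named genes stood wholly higher. Hspe1 at 6 h had 2 EPO arrays, 4.41 and 4.35, below saline and 1, 4.76, above it, with a difference of -0.17 (-0.36 to 0.02). One dim probe of Hspd1 had an unadjusted p under 0.05 for EPO at 6 h, with a difference of -0.33 ± 0.15 (adjusted p = 0.779), and rested on replicate 3, at 1.45 against 2.20 and 2.08.

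**Figure D4:**
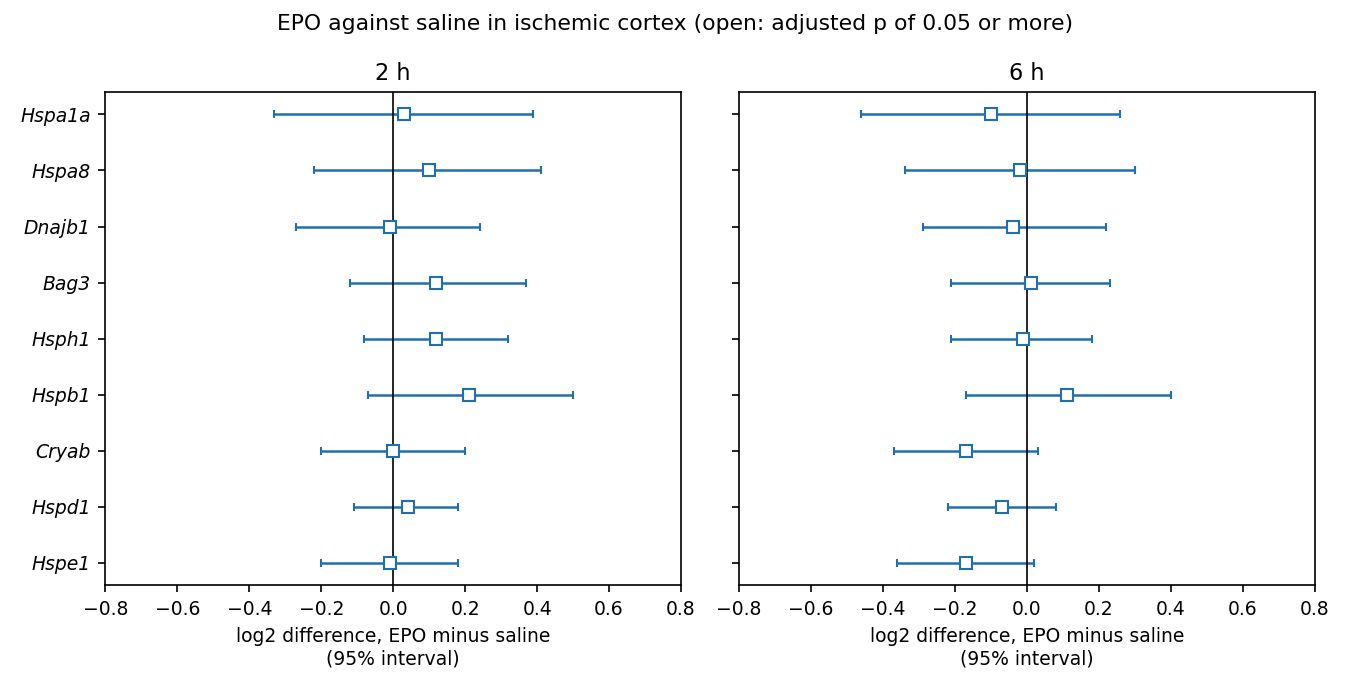
Log2 difference of EPO minus saline in ischemic cortex with 95% intervals, for each gene at 2 h (left) and 6 h (right); open symbols mark an adjusted p of 0.05 or more. All 18 intervals hold 0, and the estimates lie between -0.17 and 0.21.

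EPO-treated ischemic cortex was also set against the same sham arrays, so its values are not independent of those for saline. With EPO 6 of 9 genes rose at 2 h (1.69% of named genes did) and 8 of 9 at 6 h (9% did). Hspa1a was higher by 5.52 ± 0.17 and 6.64 ± 0.17, Hspb1 by 2.26 ± 0.13 and 3.60 ± 0.13, and Bag3 by 0.87 ± 0.10 and 2.24 ± 0.10. Hsph1 passed at 2 h here, with 0.47 ± 0.09 (adjusted p = 0.0197), where with saline it did not, but the difference between EPO and saline was 0.12 ± 0.09 and did not pass. Dnajb1 rose by 0.70 ± 0.12 and 0.82 ± 0.12 and Cryab by 0.43 ± 0.09 and 0.47 ± 0.09. The 2 h call with EPO held in 11 of 23 alternatives for Cryab and in 15 of 23 for Hsph1. Hspd1 and Hspe1 rose at 6 h, by 0.38 ± 0.07 and 0.60 ± 0.09, and Hspa8 at neither time by its brightest probe. Without the steep arrays 2 of the 8 genes that could be fitted passed at 2 h and 5 of 8 at 6 h. At 2 h the count was 3 with slide as a fixed block and 2 with the compared arrays alone. Cell markers were also set against sham at 6 h here, where 9% of named genes passed upward and 1055 of 12541 passed downward. Striatal neuron markers were higher in 7 of 9, with a summed level of 5.24 to 5.59 against 4.46 to 4.86 in sham, and neuron markers were lower in 3 of 10, at 7.60 to 7.76 against 7.82 to 7.90. Oligodendrocyte markers were higher in 5 of 12 and neutrophil markers in 2 of 5 tested. Of these 5 neutrophil markers 1 was above background on every array. Microglia and macrophage markers were higher in 3 and lower in 2 of 10, and endothelial markers were higher in 2 and lower in 4 of 10. Their part in these changes was not tested.

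The growth of the response from 2 h to 6 h was tested as the difference between both ischemia effects, each against sham of its own time. It passed upward in 4 of 9 genes: Bag3 by 1.48 ± 0.15 (adjusted p = 0.000911), Hspb1 by 1.43 ± 0.19 (adjusted p = 0.0022), Hspa1a by 1.25 ± 0.24 (adjusted p = 0.0193) and Hsph1 by 0.77 ± 0.13 (adjusted p = 0.01). Upward differences passed for 1.19% of named genes. Hspe1 missed the threshold at 0.52 ± 0.12 (adjusted p = 0.0596) and passed in 8 of 29 alternatives. Dnajb1 gave 0.15 ± 0.17 (-0.21 to 0.51), Cryab 0.21 ± 0.13, Hspd1 0.33 ± 0.10 and Hspa8 -0.18 ± 0.21, none of which passed. The 95% intervals of Dnajb1, Cryab and Hspa8 held 0 and that of Hspd1 did not. Without the 6 steep arrays Bag3 could not be fitted, and the estimates were 1.62 for Hspb1, 1.46 for Hspa1a and 0.71 for Hsph1. That setting removes 2 of the 3 saline arrays at 6 h, so whether the calls hold without steep arrays cannot be told. For Hspa1a, leaving out sham replicate 3 or saline replicate 3 of the 6 h groups ended the call, with 1.12 (adjusted p = 0.0535) and 1.25 (adjusted p = 0.0541).

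Within saline-treated ischemia, 7 of 9 genes were higher at 6 h than at 2 h (4.85% of named genes were), all but Hspa8 and Dnajb1, by 1.97 ± 0.13 in Hspb1, 1.83 ± 0.11 in Bag3 and 1.35 ± 0.17 in Hspa1a. With EPO 5 of 9 were (5.78% of named genes), Hspa1a, Hspb1, Bag3, Hsph1 and Cryab. The saline count fell to 4 of 8 without saline replicate 2 of the 2 h group, with Bag3 not fitted. Leaving out the steep arrays removes 2 of the 3 saline arrays at 6 h, and no count is given for it. Sham arrays also differed by time. Cryab rose from 2 h to 6 h in sham by 0.55 ± 0.09 (adjusted p = 0.0229), where 0.447% of named genes passed upward, and leaving out any single sham array ended this call. Its values came from the low-gain scan on 2 of 3 sham arrays at 2 h and on all 3 at 6 h, and the part of this was not tested. Hspb1 and Bag3 stood higher in sham at 6 h with no overlap, by 0.54 ± 0.13 and 0.34 ± 0.10, and did not pass (adjusted p = 0.108 and 0.232), while 8.14% of named genes stood wholly higher.

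Other chaperones were read from the same fit. Of 100 other chaperone and heat shock factor genes listed in 10 families, 86 had a probe and 85 were tested. At 2 h 2 rose and 0 fell, with a median of 0.07, and at 6 h 16 rose and 2 fell, with a median of 0.12, while 4.45% of all named genes passed downward. Both genes that rose at 2 h, Hspb3 (0.92 ± 0.15, adjusted p = 0.00468) and the J-domain gene Dnajb4 (0.52 ± 0.10, adjusted p = 0.0142), also rose at 6 h. With EPO, 0 of 85 differed from saline at either time.

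By family at 6 h, 4 of 24 further J-domain genes rose and 1 fell, led by Dnaja1, another partner of HSP70, at 0.75 ± 0.09. Dnajc3 rose by 0.29 ± 0.07 (adjusted p = 0.0226), and the gene that fell was Dnajc14, at -0.21 ± 0.05 (adjusted p = 0.028). Of the 4 HSP90 genes 2 rose, the inducible cytosolic Hsp90aa1 (0.53 ± 0.09) and the endoplasmic reticulum form Hsp90b1 (0.32 ± 0.08), and 3 of 8 HSP90 co-chaperones rose, Chordc1, Cacybp and Stip1, by 0.30 to 0.45. In the wider HSP70 family 2 of 11 rose and 1 fell: Hspa5, the HSP70 of the endoplasmic reticulum, by 0.57 ± 0.08, and Hspa1l, while Hspa12a fell by 0.32. Hspa1l was below background on all 3 sham arrays at 6 h and above it on all 3 saline arrays, at least 1.80-fold higher against the dimmest measurable signal. It entered the test only through the saline group at 6 h, where it is high, since with EPO it was above background on 2 of 3 arrays. Its place among the 16 that rose, and among the 2 of this family, is therefore no support for them. It lies beside Hspa1a in the genome, and cross-hybridisation between them was not tested. Hspb8, which works as a pair with Bag3, rose by 0.58 ± 0.15. St13, a cofactor that stabilises HSP70 bound to its client, rose by 0.45 ± 0.07, and the collagen chaperone Serpinh1 by 0.46 ± 0.10.

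The transcript of Hsf1, the factor that activates these genes, changed by 0.01 ± 0.09 at 2 h and 0.13 ± 0.09 at 6 h, and that of Hsf2 by 0.12 ± 0.08 and 0.14 ± 0.08. None of the 4 heat shock factor genes passed at either time. Of 8 subunits of the cytosolic chaperonin TRiC, Cct3 alone passed at 6 h (0.23 ± 0.05), and of 6 mitochondrial proteases and chaperones beside Hspd1 and Hspe1 none did.

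**Figure D5:**
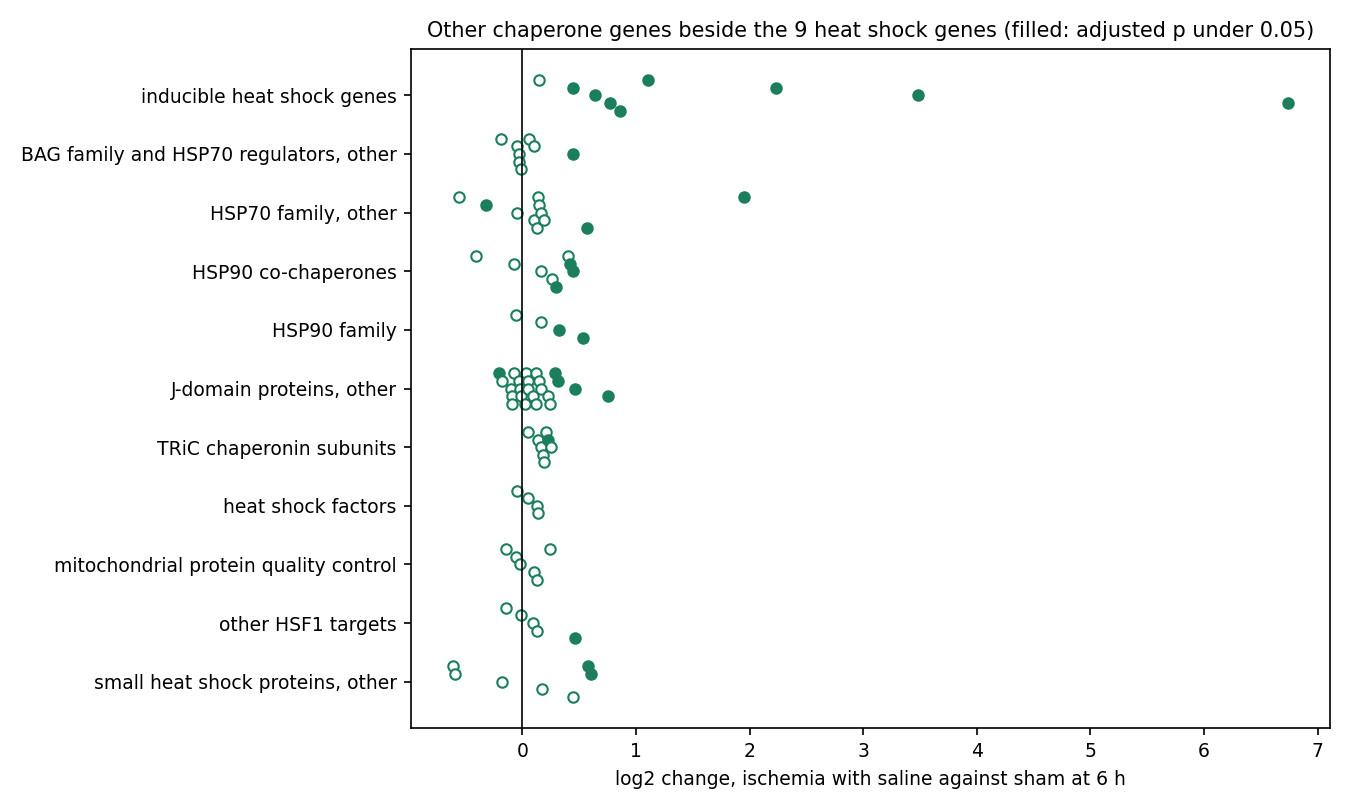
Log2 change at 6 h in ischemia with saline against sham for the 9 inducible heat shock genes (top row) and 85 other chaperone genes by family, 1 point per gene and filled where the adjusted p was under 0.05. Vertical position within a row only separates points; 3 of the 9 genes lie above 2, and the highest of the 85 is Hspa1l at 1.95, a fitted value from sham arrays below background.

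The genes varied together across the 18 arrays to different degrees, and since groups are shared this is given as a description. The Pearson correlation with Hspa1a was 0.960 for Dnajb1 and 0.933 for Hspb1, and with Bag3 (17 arrays) it was 0.960 for Hspb1 and 0.954 for Hsph1. Hspd1 and Hspe1 correlated at 0.932. Hspa8 stood apart, with correlations from 0.400, for Hspd1, to 0.566, for Hspa1a. Among 12307 other genes measured on all arrays, the patterns most like that of Hspa1a were those of the chemokines Cxcl2 (0.989), Ccl3 (0.983) and Cxcl1 (0.981) and of Ier3 (0.985), an immediate early gene, and Pvr (0.977). Those most like Hspb1 were Mcl1 (0.986), which blocks apoptosis, the chemokine Ccl2 (0.983), the protease inhibitor Timp1 (0.983), the adhesion molecule Icam1 (0.977) and Ptges (0.974), which makes prostaglandin E2.

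Markers of other cells were also read at 6 h in ischemia with saline, where 7.14% of named genes passed upward and 4.45% downward. All 10 neuron markers were above background on every array, and 1 of 10 changed, Neurod6, which fell by 0.78, while Syt1 gave -0.23 ± 0.07 and did not pass (adjusted p = 0.0646). Striatal neuron markers were also present and stood at a summed level of 4.46 to 4.86 on sham and 5.11 to 5.38 on saline arrays, with 2 of 9 higher, Adora2a by 0.88 and Ppp1r1b by 0.59. Of 5 tested neutrophil markers 2 rose, S100a8 and Il1r2, with a summed level of -1.76 to -0.71 on sham and 0.13 to 0.35 on saline arrays. Microglia and macrophage markers rose in 3 (Cd14 at 1.77) and fell in 2 (P2ry12 at -0.95) of 10, and endothelial markers rose in 1 and fell in 4 (Slco1a4 at -1.12 and the tight junction gene Ocln at -0.87) of 10. Mural cell markers rose in 1 (Des at 0.86) and fell in 2 (Cspg4 at -0.41) of 6, with a median of -0.39 and a summed level of 3.28 to 3.49 on sham and 2.99 to 3.05 on saline arrays. Of 10 astrocyte markers 1 rose, the glutamate transporter Slc1a2 by 0.29 ± 0.08 (adjusted p = 0.0444), and the water channel Aqp4 gave 0.27 ± 0.08 (adjusted p = 0.0611). Neither of the 2 red cell genes passed, Alas2 at 0.14 ± 0.21 and Hbb at 0.09 ± 0.21. Their part in the heat shock response was not tested.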

How the data were processed

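Total RNA from rat brain cortex was labelled with Cy3 and hybridised to 18 one-colour Agilent arrays, 1 per sample, per the labels' protocols. Spots were read with Agilent Feature Extraction 9.1.1.1, per the submitters' processing notes, and the deposited scanner files give each spot's processed signal as a linear intensity, background-corrected per the file headers. The deposited table gives 1 log2 value per probe and sample and equals, per the comparison with the scanner files, the mean log2 processed signal over a probe's spots with no scaling between arrays; it was used only for that check.

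From the 43379 spots, 1639 control spots and spots marked as outliers were left out, spots of 1 probe were averaged, and the 75th percentile of each array's log2 signal was subtracted. Probes had to be well above background on all 3 arrays of 1 group or more, and measured on 2 or more arrays of each group, which left 28956 of 41012 probes, 322 of them missing on at least 1 array. A limma 3.58.1 model (R 4.3.3) with 1 mean per group, 12 residual degrees of freedom and 11 contrasts was fitted, with Benjamini-Hochberg adjustment over all probes tested. The median SE of a 2-group change was 0.132. Precision is limited by the number of arrays. The code was tested on simulated data. Symbols come from the array design, updated through RefSeq accessions and synonyms. Promoters are from RefSeq on GRCr8.

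The members and the gene lists were chosen with earlier results of these data known. All members are named. Of each chaperone list up to 4 genes of smallest p that passed in ischemia with saline at 2 h or 6 h are named, with Hsf1 and Hsf2, of each cell type list up to 2 at 6 h, with Mbp, and the 5 genes most alike in pattern to Hspa1a and to Hspb1. The report leaves out 1 gene that this rule names, which is not reported here.

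Groups share replicate numbers. Deviations from the group means correlated by number at 0.887, 0.654 and 0.635 between EPO and saline at 2 h, which meets the rule for pairs. In none of the other 5 pairs of groups checked, all within a time, did all 3 numbers correlate above 0.1. The labels do not say that equal numbers are paired samples. Replicate 1 was an array of steep slope both with EPO and with saline at 2 h, and its part in these correlations was not tested. The arrays lay on 5 slides scanned on 2 days. Alternatives for background, scaling, filters, slide, spike-in slope, variance and probe choice were run, along with leaving out each array.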

Additional observations from a re-analysis of the deposited data

Results flagged for a closer look

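The size of the ischemia effect with saline differed between 2 h and 6 h in 4 genes, by the test of the difference itself (limma, adjusted over all probes). Bag3, the exchange factor, rose by 1.48 ± 0.15 more at 6 h than at 2 h (adjusted p = 0.000911). Hspb1, the small heat shock protein, rose by 1.43 ± 0.19 more (adjusted p = 0.0022). Hspa1a, the inducible HSP70, rose by 1.25 ± 0.24 more (adjusted p = 0.0193), and Hsph1 by 0.77 ± 0.13 more (adjusted p = 0.01). The call of Hspa1a ended without sham replicate 3 or saline replicate 3 of the 6 h groups (limma adjusted p = 0.0535 and 0.0541). Of the 3 saline arrays at 6 h 2 were of steep slope, so whether the 4 calls hold without steep arrays cannot be told.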

How the results depend on the processing

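Each change of the 9 genes between groups of the same time, and each interaction of ischemia with time, was recomputed under 17 other settings and without each array of the groups it compares, where it could be fitted; changes within a group over time were recomputed as counts only. The 31 changes that passed gave 718 recomputed values, of which 666 still passed, 52 no longer did and 0 changed direction. The 32 that did not pass gave 758, of which 12 passed. EPO against saline kept 0 of 9 genes in every alternative run, at both times. Without the 6 arrays of steep slope, where Bag3 could not be fitted, the number of the other 8 genes that passed was 2 at 2 h for saline. It was 2 at 2 h and 5 at 6 h for EPO against sham, 0 for sham over time and 3 for EPO over time. This setting leaves fewer arrays and removes 2 of the 3 saline arrays at 6 h, so counts of these genes that rest on that group are not given. With only the arrays compared the number that passed was 2 at 2 h for saline, 2 at 2 h for EPO against sham, 0 for sham over time and 2 for EPO over time. With slide as a fixed block it was 3 for EPO against sham at 2 h. The 1 gene that rose in sham over time became 2 with quantile normalization and 0 with no scaling, no filter on dim probes, slide as a fixed block or the replicate block. The replicate block left 4 of 9 genes at 2 h and 8 of 9 at 6 h for saline and 0 for EPO against saline. Apart from sham over time it moved no count of these genes by more than 1.5 times. Leaving out 1 array at a time gave 3 to 5 genes at 2 h and 8 to 8 at 6 h for saline, 4 to 6 at 2 h for EPO against sham, 0 to 0 for sham over time, 4 to 6 for saline over time and 3 to 4 for the interaction. Over the array, 376 probes passed at 2 h (29 to 651 over the alternatives) and 2829 at 6 h (at most 3805). The lowest 6 h count came from the setting without steep arrays, which removes 2 of the 3 saline arrays, and is not given. Of the probes that passed, 81.4% and 57% were higher, against 70.7% and 67.3% with no scaling, which moves the median by -0.10 at 2 h. The 3 alternatives for the percentile's probes, missing probes and outlier spots were chosen after seeing the data. The causes of these shifts were not tested.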
